A study of Homo sapiens with 9 samples.

Results

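In 786-0 cells, 88 protein-coding genes differed at least 3-fold between a HIF2α knockout (KO) and the parental line (WT), while their levels with the HIF2α antagonist PT2385 stayed within 1.3-fold of WT. Of these genes, 54 were higher and 34 were lower in KO. They were chosen by that rule from 58735 gene identifiers counted in 9 RNAseq libraries, of which 11287 were protein-coding genes with a mean of at least 20 counts. The largest differences were seen in STUM and MARK1, which had almost no reads outside KO, and in LAYN and NUP210, which almost disappeared in KO. The set also included the gene that was targeted, EPAS1, and 2 collagen chains that fell and 1 that rose. Of genes known from muscle and excitable cells, the ryanodine receptor RYR2 and the junctophilins JPH1 and JPH2 rose, while KY, SLN and NEBL fell. Of genes best known from leukocytes, SYK, JAK3, SPN, PRKCQ, LCP1 and HNRNPLL fell, while ITGB2 and PLCL2 rose.

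786-0 is an established line from a clear cell renal cell carcinoma (ccRCC). The 3 groups were untreated WT cells, WT cells with 10 μM PT2385 for 48 h and untreated cells with the genotype label hif2a KO, all grown at 21% oxygen, with 3 libraries each. Neither the labels nor the study's methods say how the KO cells were made or whether the 3 KO libraries share 1 line or clone. The paper describes silencing of HIF2α by siRNA and names no knockout, so KO here follows the sample label. Nothing says that the 3 libraries of a group came from separate cultures, so the errors given here measure the spread between libraries, which may be partly technical.

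HIF2α, encoded by EPAS1, is a hypoxia-inducible transcription factor. The VHL protein marks it for degradation when oxygen is present, and ccRCC cells that have lost VHL keep it at normal oxygen. It binds DNA together with its partner ARNT and drives genes of glucose uptake, angiogenesis and growth. PT2385 sits in a pocket of HIF2α and prevents it from pairing with ARNT, so that the protein is still made but cannot act with its partner, whereas a knockout takes away the protein itself. The genes described here are those whose levels separated the knockout from the antagonist.

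The values that chose the genes were CPM, the reads of a gene divided by the total of its library and multiplied by 1000000. The mean CPM of the 3 libraries plus 0.5 was taken for each group. A gene was kept if KO/WT was at least 3 or at most 0.333, if every KO library lay beyond all WT libraries, and if PT2385/WT lay within 1.3-fold in either direction. The KO criteria alone were met by 129 higher genes (1.14% of 11287) and 128 lower genes (1.13%). Of these 257 genes, 158 moved beyond the PT2385 limit in the direction they had in KO, 11 moved beyond it in the other direction, and the 88 stayed inside. Both comparisons share the WT libraries, and all 9 libraries served to choose the genes, so the differences below are a description and no test of them is given.

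**Figure D1:**
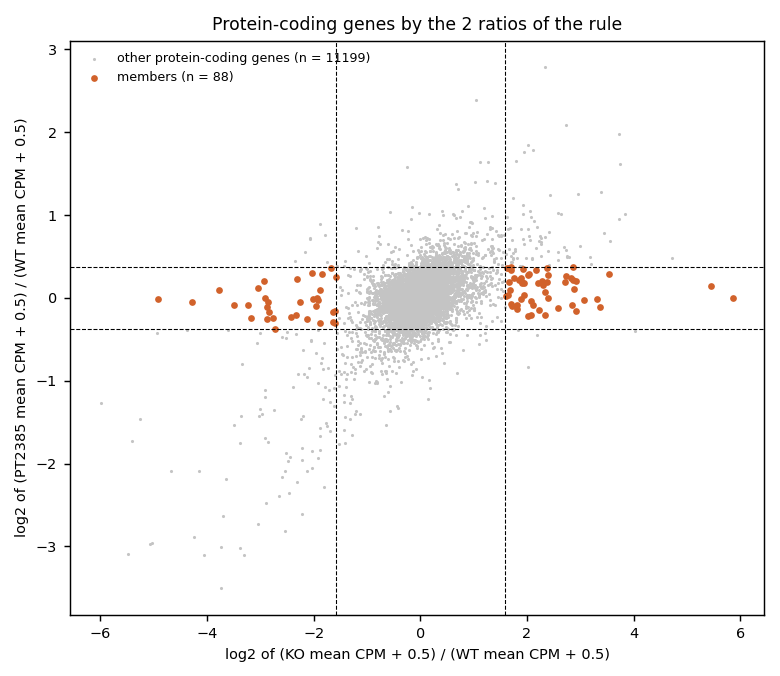
Each point is 1 protein-coding gene, with the log2 ratio KO/WT on the x axis and PT2385/WT on the y axis (mean CPM plus 0.5 in each group). Dashed lines are the 3-fold and 1.3-fold limits of the rule, and the 88 members, in orange, lie between the horizontal lines and outside the vertical ones.

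Some genes lay close to these limits. The higher members with the smallest KO/WT ratios were HERC5 at 3.04 and MN1 at 3.10, and the genes just short of 3 were DNM3 at 2.99 and AHNAK2 at 2.97. Among lower members HNRNPLL had a ratio of 0.333 and TP73 of 0.331, while H4C13 at 0.348 and CGB8 at 0.354 were left out. At the PT2385 limit, DOCK6 and AKR1C3 were kept at PT2385/WT ratios of 1.296 and 1.295, and PEAR1 and VEPH1 fell outside at 1.31 each. On the other side SLN was kept at 0.773 and BMP8B at 0.813, and SLFN13 and EVC2 fell outside at 0.766 each.

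The targeted gene, EPAS1, was itself a member. It had 3226, 3210 and 2788 counts in WT, 3075, 3317 and 3132 with PT2385 and 262, 360 and 307 in KO. The mean was 255 ± 20.9 CPM (SD, n = 3) in WT, 240.0 ± 18.4 with PT2385 and 22 ± 2.53 in KO, which is 11.3-fold lower on the scale of the rule. EPAS1 was thus low in all 3 KO libraries, which the rule required of a lower member, and 262 to 360 reads of it remained. The antagonist left the messenger RNA of its target inside the WT range apart from 1 library below it. A list of HIF targets is given for comparison. Of its 40 well counted genes 0 were members, and 0.780% of all 11287 genes were, so that a count of 0 is near the share over all genes. By edgeR's quasi-likelihood test with Benjamini-Hochberg adjustment, 29 of the 40 were lower and 3 higher in KO (over all 15192 tested genes 15.4% were lower and 14.7% higher). With PT2385, 30 of the 40 were lower and 0 higher, against 4.62% lower and 3.08% higher of 15089 genes. At an unadjusted p under 0.05 1 of the 40 was higher with PT2385, and DESeq2 called 0 higher. The median log2 fold change of the list was -0.75 in KO and -0.70 with PT2385, against 0.00 over all tested genes in both. The 4 best counted genes of that list were ENO1 (log2 fold change 0.20 in KO and 0.08 with PT2385), LDHA (-0.49 and -0.75), TFRC (-0.39 and -0.38) and SLC16A3 (0.02 and -0.10).

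Total counts ran from 11881000 to 14730081 per library. The renal carcinoma markers (PAX8, VIM, MET, CDH2, keratins and others) summed to between 7091 and 7709 CPM in every library, with only LRP2 of the 10 at 0 throughout. VIM made up most of that sum, and single markers moved. Mean PAX2 was 34.0 CPM in WT, 25.4 with PT2385 and 13.6 in KO. CDH6 went from 99.8 CPM in WT to 264 with PT2385 and 203 in KO, and KRT18 from 160 to 225 and 287. Of 5 leukocyte markers CD3E was at 0 in every library, and the 5 together summed to no more than 1.22 CPM. Endothelial markers summed to under 1 CPM, with PECAM1 and VWF at 0. Neural markers stayed between 3.49 and 7.13 CPM. The 5 fibroblast markers summed to 8.71 to 10.0 CPM in WT, 10.5 to 13.4 with PT2385 and 5.16 to 7.0 in KO, and did not move together. DCN and PDGFRA were at 0 throughout, COL1A1 and the member PDGFRB were lower in KO, and LUM was higher, with a mean of 3.20 CPM in KO against 1.44 in WT. In bulk RNA, fewer cells with a transcript and less of it per cell cannot be told apart.

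**Figure D2:**
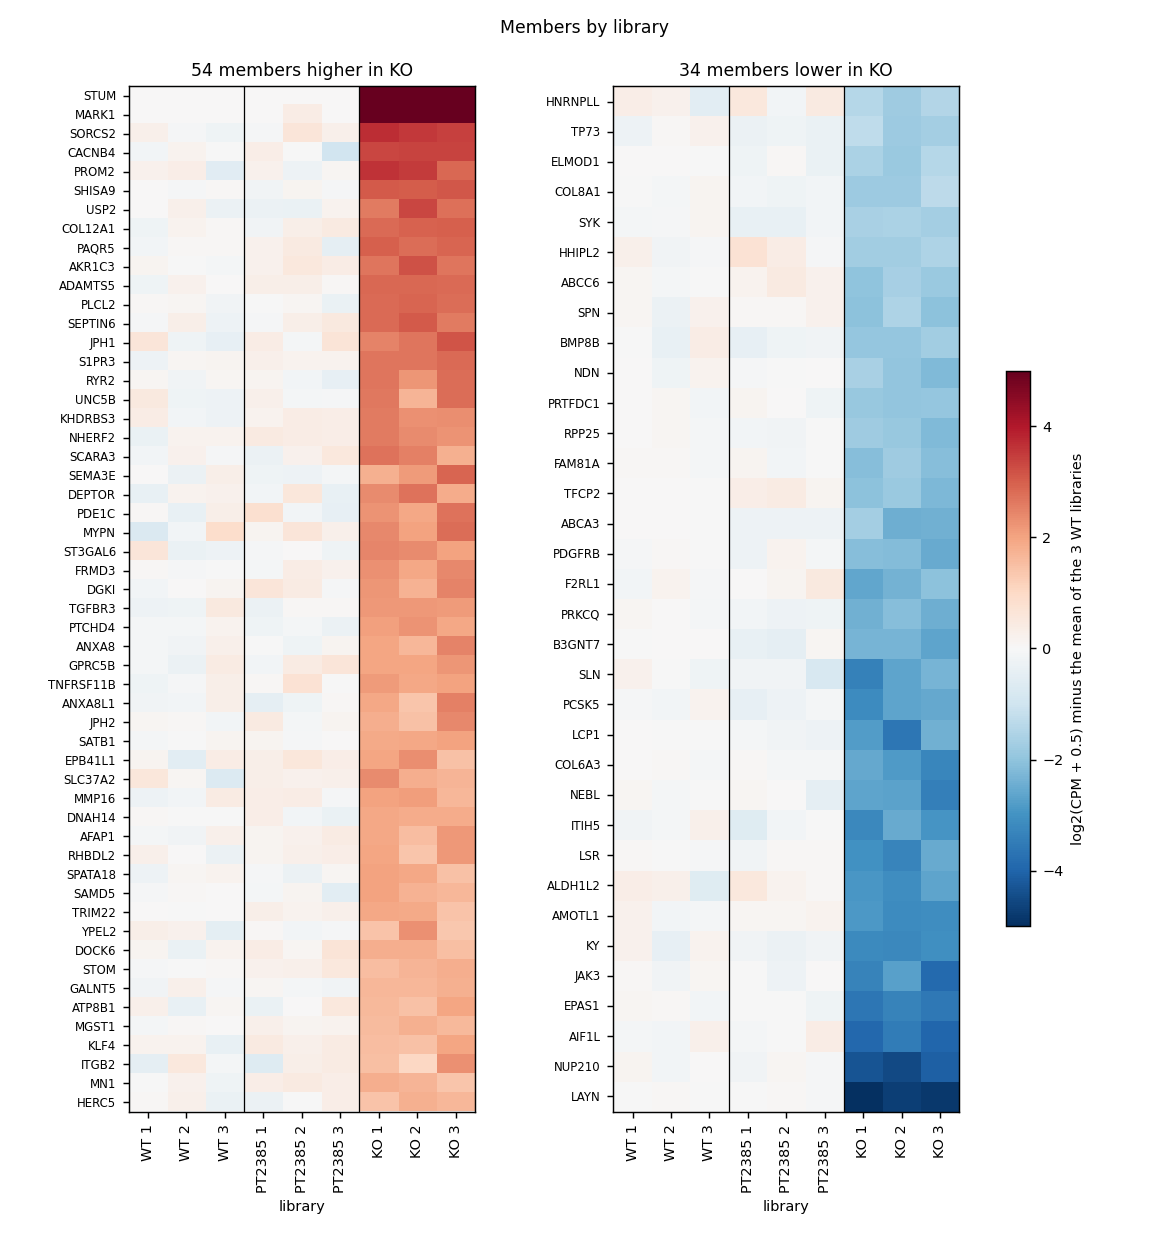
Rows are the 88 members and columns the 9 libraries. Colour is log2(CPM + 0.5) minus the mean of the 3 WT libraries, cut off at -5 and 5. The KO columns stand apart in every row because the rule required it, while the PT2385 columns stay near the WT level.

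Higher members had a median KO/WT ratio of 4.43, and lower members a median WT/KO ratio of 5.01. The difference was at least 5-fold in 22 higher and 18 lower members. KO lay beyond all 3 PT2385 libraries in all 88 genes (40.0% of the 11287 genes were separated in this way), a separation that the limits on KO/WT and PT2385/WT nearly fix. The log2 difference between KO and PT2385 ran from 1.31 to 4.49 in higher members and from -6.10 to -1.37 in lower ones, leaving out 5 members at the floor of detection described next. Replicates spread by a median coefficient of variation of 16.3% in WT, 13.8% with PT2385 and 20.7% in KO. The members were thinly counted genes: their median of 89.7 counts per library compares with 475 for all 11287 genes and with 153 for the other 169 genes that met the KO criteria.

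A few members, 5 in all, sat at the detection limit in one condition, taken here as 3 counts in a library. STUM had 0, 0 and 0 counts in WT, 0, 0 and 0 with PT2385 and 374, 492 and 331 in KO. MARK1, a kinase that phosphorylates microtubule-associated proteins, had 0, 0 and 0 counts in WT, 0, 2 and 0 with PT2385 and 277, 309 and 311 in KO. With the floor of 3 counts in place of the WT counts, STUM was at least 115-fold and MARK1 at least 85.9-fold higher in KO. Both genes were thus detected in KO alone. In the other direction KY, a peptidase known from muscle, had 76, 48 and 75 counts in WT, 58, 58 and 67 with PT2385 and 2, 2 and 3 in KO, at least 25.6-fold lower in KO. PRKCQ, the protein kinase C of T cell activation, had 33, 32 and 29 counts in WT, 28, 28 and 31 with PT2385 and 1, 3 and 1 in KO, at least 12.1-fold lower. PDGFRB, a receptor for platelet-derived growth factor, had 27, 31 and 28 counts in WT, 23, 37 and 31 with PT2385 and 2, 2 and 0 in KO, at least 11-fold lower. All 5 therefore went from reads in every library of one group to the floor in the other, and their PT2385 counts lay close to the WT counts.

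Of the members with enough reads to be well measured, LAYN showed the largest fall. It encodes layilin, a surface receptor for hyaluronan, and measured 24.8, 26.1 and 25.1 CPM in WT, 24.7, 26.7 and 24.2 with PT2385 and 0.155, 0.485 and 0.407 in KO, a log2 fold change of -6.11 ± 0.33 (edgeR, ± standard error). NUP210, a membrane glycoprotein of the nuclear pore, measured 18.9, 15.4 and 17.1 CPM in WT, 15.2, 18 and 16.4 with PT2385 and 0.388, 0.277 and 0.543 in KO (-5.36 ± 0.32). AIF1L, an actin-bundling protein, measured 15.3, 15 and 20.1 CPM in WT, 15.7, 16.3 and 21.9 with PT2385 and 0.62, 1.04 and 0.611 in KO (-4.44 ± 0.28). In all 3 the KO libraries held between 2 and 15 reads, few against the library totals. Some rises started from few reads, with some but not all WT and PT2385 libraries at or under 3 counts. SORCS2, a sorting receptor of neurons, went from 5, 3 and 2 counts in WT and 3, 9 and 6 with PT2385 to 122, 120 and 114 in KO. PROM2, a prominin of plasma membrane protrusions, had 6, 7 and 1 counts in WT, 6, 3 and 6 with PT2385 and 129, 132 and 86 in KO. SHISA9, an auxiliary subunit of AMPA receptors, started from a measurable level with 5.56, 5.2 and 5.81 CPM in WT, 4.83, 6.09 and 5.31 with PT2385 and 50.3, 48 and 50.9 in KO (3.18 ± 0.10), and its KO libraries differed among themselves by less than those of most members.

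Matrix genes moved in both directions. Of 15 well counted collagen genes, 3 were members. COL6A3, a chain of the beaded filaments of collagen VI, measured 191, 198 and 175 CPM in WT, 195, 175 and 174 with PT2385 and 31.4, 25.8 and 19.1 in KO, a fall of 7.26-fold. COL8A1, a short-chain collagen of vessel and basement membranes, measured 180.1, 172 and 199.7 CPM in WT, 166, 158 and 168 with PT2385 and 52.4, 51.5 and 73.5 in KO, a fall of 3.1-fold. COL12A1, which decorates the surface of collagen I fibrils, rose 7.52-fold instead, with 2.27, 3.17 and 2.9 CPM in WT, 2.38, 3.53 and 3.91 with PT2385 and 22.7, 24.7 and 25.2 in KO. COL6A3 and COL8A1 were among the best counted of all members, and WT and PT2385 libraries overlapped in COL6A3, whereas in COL8A1 every PT2385 library lay below every WT library. Across the collagen family 17 genes were tested in KO, of which 7 were higher and 4 lower by edgeR (over all tested genes 14.7% higher and 15.4% lower). Of 16 tested with PT2385, 5 were higher and 0 lower by edgeR, against 3.08% higher and 4.62% lower over all genes (1 lower at an unadjusted p under 0.05, and 0 lower by DESeq2). The median log2 fold change of the family was 0.35 in KO and 0.19 with PT2385. Both metalloproteases among the members were higher in KO. ADAMTS5, the aggrecanase, measured 10.5, 14.1 and 12.2 CPM in WT, 14.8, 15.1 and 12.9 with PT2385 and 93.1, 93.1 and 90.3 in KO (7.26-fold higher), and its KO libraries lay close together. MMP16, a membrane-type metalloprotease, rose 3.73-fold, with 3.62, 3.98 and 6.06 CPM in WT, 5.73, 5.86 and 4.26 with PT2385 and 19.6, 20.3 and 15.1 in KO. Genes of 2 further matrix-related proteins were lower in KO. PCSK5, a convertase that activates precursors of growth factors and proteases, fell 6.75-fold with 168, 160.3 and 199 CPM in WT, 133, 149 and 165 with PT2385 and 19.5, 27.9 and 29.5 in KO. ITIH5, a hyaluronan-associated protein, fell 7.33-fold with 8.08, 8.54 and 10.9 CPM in WT, 5.73, 8.34 and 8.87 with PT2385 and 0.543, 1.18 and 0.747 in KO.

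**Figure D3:**
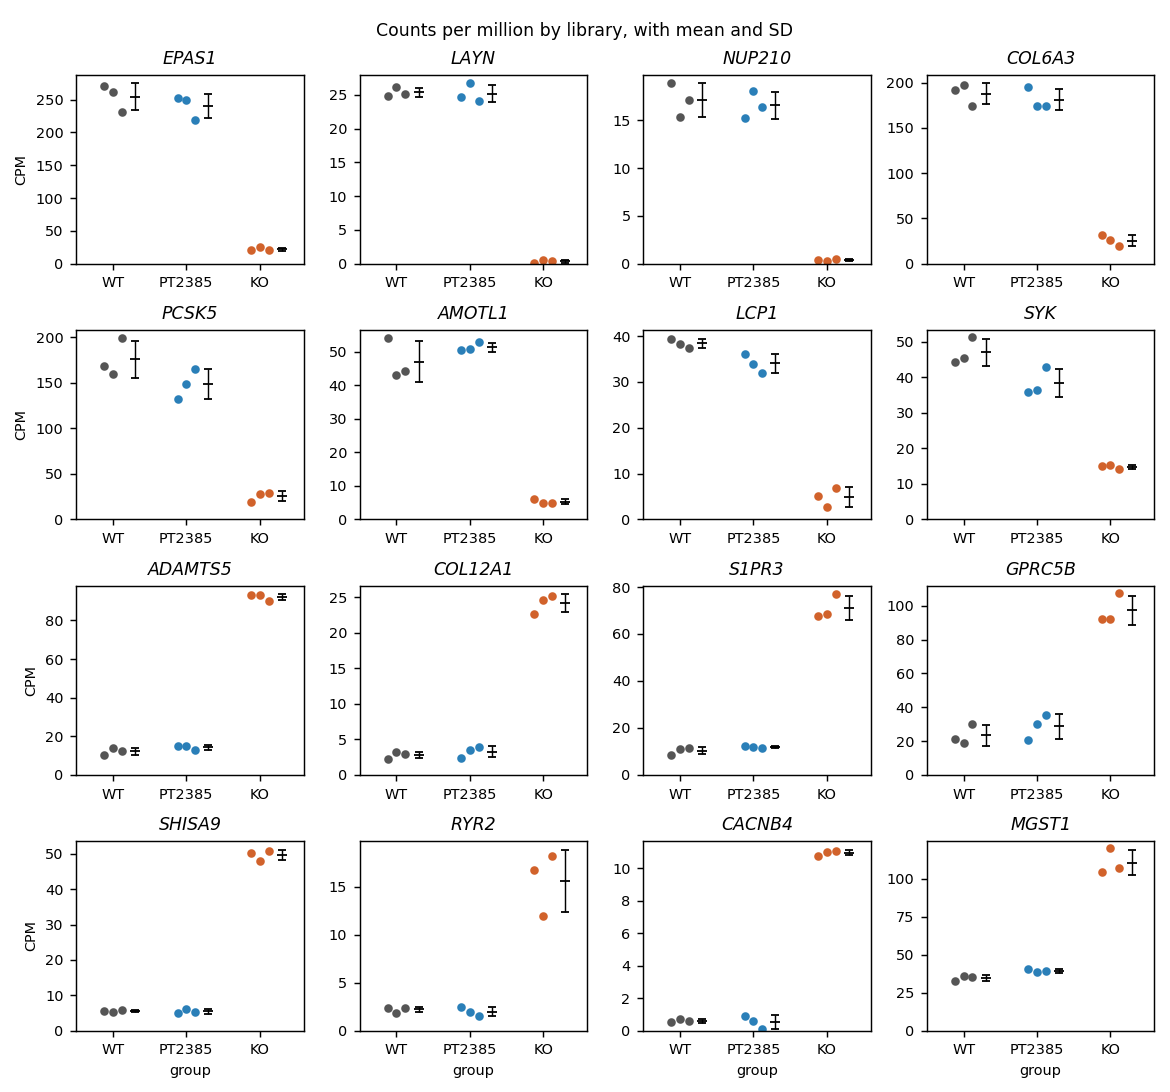
CPM of 16 members in each library (points; grey WT, blue PT2385, orange KO) with the mean and SD of 3 libraries beside them. WT and PT2385 points share a range or lie close together, and the KO points stand apart.

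Receptors and secreted signals formed another group. S1PR3, a receptor for sphingosine-1-phosphate, measured 8.59, 11.1 and 11.4 CPM in WT, 12.2, 11.7 and 11.7 with PT2385 and 67.6, 68.4 and 77.1 in KO (6.59-fold higher). GPRC5B, an orphan receptor, measured 21.2, 18.6 and 30.4 CPM in WT, 20.7, 30.3 and 35.3 with PT2385 and 92.3, 92.2 and 107 in KO (4.09-fold higher), with replicate 3 highest in both WT and PT2385. F2RL1, the protease-activated receptor PAR2, fell 5.0-fold with 22.3, 27.4 and 23.5 CPM in WT, 25, 26.5 and 34.2 with PT2385 and 3.57, 4.3 and 5.57 in KO. These 3 were the only members among 66 well counted G protein-coupled receptors. In that family 24 genes were higher and 15 lower in KO of 76 tested, and 7 and 2 of 74 with PT2385. Over all tested genes 14.7% were higher and 15.4% lower in KO and 3.08% higher and 4.62% lower with PT2385. The share of higher genes in the family was above that of all genes in both comparisons. Its share of lower genes was a little above that of all genes in KO and under it with PT2385. UNC5B, a netrin receptor, had 31, 17 and 16 counts in WT, 26, 21 and 23 with PT2385 and 168, 96 and 216 in KO. SEMA3E, a secreted semaphorin, had 11, 8 and 15 counts in WT, 9, 9 and 12 with PT2385 and 56, 82 and 151 in KO, its KO libraries spread over more than 2-fold. TGFBR3, the co-receptor betaglycan, had 13, 14 and 26 counts in WT, 13, 20 and 21 with PT2385 and 105, 118 and 114 in KO, and its 3 KO libraries lay close together. BMP8B, a ligand of the same superfamily, fell, with 100, 80 and 132 counts in WT, 75, 96 and 106 with PT2385 and 24, 27 and 32 in KO. Of these 4 genes BMP8B alone was lower in KO. TNFRSF11B, the decoy receptor osteoprotegerin, had 11, 13 and 18 counts in WT, 15, 29 and 16 with PT2385 and 87, 84 and 91 in KO. PAQR5, a membrane progestin receptor, rose 7.38-fold, with 18, 22 and 22 counts in WT, 25, 33 and 16 with PT2385 and 217, 212 and 234 in KO. SCARA3, a scavenger receptor family member, rose 5.18-fold and the Patched-domain gene PTCHD4 4.23-fold.

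Several genes known from excitable and muscle cells were present; this grouping was made after their values were seen. RYR2, the calcium release channel of the endoplasmic reticulum in heart, had 28, 23 and 29 counts in WT, 30, 26 and 22 with PT2385 and 216, 173 and 268 in KO. JPH1 and JPH2, junctophilins that hold that membrane close to the cell surface, rose together from a low level. JPH1 had 8, 2 and 1 counts in WT, 6, 3 and 10 with PT2385 and 49, 63 and 93 in KO. JPH2 had 10, 10 and 8 counts in WT, 15, 9 and 13 with PT2385 and 52, 43 and 92 in KO. In both, replicate 3 was the highest of the KO libraries. CACNB4, a β subunit of voltage-gated calcium channels, had 6, 9 and 7 counts in WT, 11, 8 and 1 with PT2385 and 139, 159 and 163 in KO, and its KO libraries lay close together. MYPN, the sarcomere protein myopalladin, had 0, 3 and 12 counts in WT, 5, 10 and 7 with PT2385 and 49, 40 and 77 in KO, with no read in 1 WT library. PDE1C, a calmodulin-dependent phosphodiesterase, had 6, 3 and 8 counts in WT, 14, 5 and 3 with PT2385 and 52, 45 and 85 in KO. KY, given above at the floor in KO, and SLN and NEBL went the other way. SLN, the small regulator of the calcium pump SERCA, had 67, 58 and 48 counts in WT, 50, 55 and 36 with PT2385 and 0, 5 and 8 in KO, and NEBL, the actin-binding protein nebulette, had 219, 198 and 201 counts in WT, 220, 227 and 178 with PT2385 and 30, 32 and 17 in KO. RYR2 and CACNB4 were the only members of 63 well counted ion channels, where 0.780% of all counted genes were members. Of 70 channels tested 17 were higher and 17 lower in KO, against 14.7% higher and 15.4% lower over all genes. RYR2, NEBL and the other members of this group were low in every condition, at no more than 17.1 CPM on average.

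Genes best known from leukocytes were also grouped after their values were seen. SYK, a tyrosine kinase downstream of immune receptors, measured 44.2, 45.5 and 51.4 CPM in WT, 35.8, 36.5 and 43 with PT2385 and 14.9, 15.2 and 14.3 in KO (-1.66 ± 0.09). LCP1, the actin bundler L-plastin, measured 39.5, 38.4 and 37.5 CPM in WT, 36.2, 33.9 and 32 with PT2385 and 5.12, 2.7 and 6.92 in KO (-2.95 ± 0.22). JAK3, the kinase of cytokine receptors with the common γ chain, had 85, 75 and 90 counts in WT, 82, 76 and 100 with PT2385 and 3, 9 and 0 in KO. SPN, the sialoprotein CD43, had 126, 98 and 139 counts in WT, 126, 136 and 167 with PT2385 and 26, 44 and 30 in KO. In SYK and LCP1 every PT2385 library lay below every WT library, and in JAK3 and SPN the groups overlapped. HNRNPLL, a splicing regulator of CD45, fell, with 48, 45 and 24 counts in WT, 57, 37 and 63 with PT2385 and 11, 8 and 12 in KO. The other 2 genes went up. ITGB2, the β2 integrin chain, had 27, 61 and 36 counts in WT, 23, 55 and 64 with PT2385 and 131, 105 and 262 in KO. PLCL2, a phospholipase C-like protein without catalytic activity, had 13, 14 and 10 counts in WT, 12, 15 and 10 with PT2385 and 134, 156 and 147 in KO. The defining markers of leukocytes were at or near 0 in every library, as given above. The interferon-induced genes TRIM22 and HERC5 rose 3.4-fold and 3.04-fold. In the list of interferon response genes that holds HERC5, 31 of 51 tested genes were higher in KO and 2 lower (median log2 fold change 0.48), against 14.7% higher and 15.4% lower over all genes. In the same list 5 of 45 were higher and 0 lower with PT2385, against 3.08% higher and 4.62% lower over all genes (by edgeR; 0 lower at an unadjusted p under 0.05 and 0 by DESeq2).

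Among genes of the cytoskeleton, junctions and cell polarity, AMOTL1, an angiomotin that binds YAP at cell junctions, measured 54, 43 and 44.3 CPM in WT, 50.5, 50.8 and 52.9 with PT2385 and 6.05, 4.85 and 4.96 in KO (-3.15 ± 0.13). LSR, a receptor of tricellular junctions, measured 13.1, 12.4 and 12.2 CPM in WT, 11.2, 13.3 and 13.1 with PT2385 and 1.09, 0.832 and 1.77 in KO (-3.33 ± 0.24). AFAP1, which cross-links actin filaments, rose 3.69-fold with 25.7, 23.8 and 33 CPM in WT, 29.7, 31.3 and 36.4 with PT2385 and 105, 79.8 and 124 in KO. SEPTIN6 rose 7.05-fold, EPB41L1 3.79-fold, FRMD3 4.64-fold, the Rac and Cdc42 exchange factor DOCK6 3.27-fold and the dynein heavy chain DNAH14 3.71-fold. NHERF2, a PDZ scaffold of membrane transporters, had 7, 13 and 13 counts in WT, 17, 17 and 18 with PT2385 and 102, 95 and 89 in KO, and all its PT2385 libraries were above all WT libraries. STOM, the membrane protein stomatin, showed the same order at a higher level, with 22.9, 24 and 25.2 CPM in WT, 28.2, 28.6 and 34.4 with PT2385 and 71.7, 79.1 and 86.7 in KO.

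Metabolic enzymes and transporters were fewer. AKR1C3, an aldo-keto reductase of steroids and prostaglandins, had 8, 7 and 6 counts in WT, 9, 14 and 13 with PT2385 and 83, 136 and 93 in KO. MGST1, a membrane-bound glutathione transferase, was the best counted of these, with 32.6, 35.7 and 35.3 CPM in WT, 40.8, 38.5 and 38.9 with PT2385 and 104, 120.2 and 107 in KO (3.17-fold higher). ALDH1L2, the mitochondrial formyltetrahydrofolate dehydrogenase, fell 7.59-fold with 104, 100 and 52 counts in WT, 121, 102 and 102 with PT2385 and 6, 5 and 10 in KO. The lipid transporter ABCA3 fell 4.39-fold with 21.1, 20.7 and 20.2 CPM in WT, 17.2, 17.2 and 17.3 with PT2385 and 6.05, 3.4 and 3.53 in KO. ABCC6, a hepatic and renal efflux transporter, fell 3.57-fold, the phospholipid flippase ATP8B1 rose 3.2-fold and the sugar phosphate transporter family gene SLC37A2 rose 3.76-fold. DGKI, a diacylglycerol kinase, rose 4.51-fold and PRTFDC1, a relative of HPRT1, fell 3.84-fold. Of 73 well counted glycosyl- and sulfotransferases, 3 were members. GALNT5, which starts O-linked chains, rose 3.24-fold and the sialyltransferase ST3GAL6 4.65-fold, while B3GNT7, an enzyme of keratan sulfate chains, fell 5.36-fold. In that family 18 genes were higher and 18 lower in KO of 77 tested, and 7 and 5 of 78 with PT2385. The shares over all tested genes were 14.7% higher and 15.4% lower in KO and 3.08% higher and 4.62% lower with PT2385.

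Regulators of transcription, RNA and growth made up most of the rest. SATB1, a chromatin organiser, measured 9.85, 10.4 and 11.9 CPM in WT, 11.9, 10.3 and 10.7 with PT2385 and 40.8, 42.1 and 44.6 in KO (3.84-fold higher). KLF4, an epithelial zinc finger factor, measured 7.24, 7.32 and 4.89 CPM in WT, 8.85, 7.74 and 8.73 with PT2385 and 19.5, 18.6 and 26.5 in KO (3.15-fold higher). MN1, a transcriptional co-regulator, rose 3.1-fold, the RNA-binding protein KHDRBS3 5.26-fold, the deubiquitinase USP2 7.54-fold and the mTOR inhibitor DEPTOR 5.03-fold. TFCP2 fell 4.11-fold, the p53 relative TP73 3.02-fold and RPP25, a subunit of RNase P, 3.87-fold. NDN, an imprinted gene expressed from the paternal copy, fell 3.78-fold with 155, 138 and 178 counts in WT, 152, 170 and 187 with PT2385 and 50, 42 and 36 in KO. It was the only member of 14 well counted imprinted genes. The remaining members were ANXA8 and ANXA8L1 (4.19-fold and 4.03-fold higher), RHBDL2, SPATA18, SAMD5 and YPEL2 (between 3.29-fold and 3.61-fold higher) and FAM81A, ELMOD1 and HHIPL2 (between 3.04-fold and 4.03-fold lower). No member stood on 8 of the 16 gene lists, those of HIF targets, kidney lineage regulators, tubule transport, epithelial-mesenchymal transition, Wnt, Notch, matrix glycoproteins and lipid metabolism. These lists hold between 7 and 47 well counted genes each, and at 0.780% of all genes being members, fewer than 1 per list would match the share over all genes.

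With PT2385, the 77 members that passed the filter on low counts had log2 fold changes between -0.45 and 0.50 with a median of -0.03, against a median of 0.00 over all tested genes. The median was 0.17 in higher members and -0.09 in lower members, values whose size the rule had bounded but not their sign. By edgeR's quasi-likelihood test with Benjamini-Hochberg adjustment 0 of the 77 were differentially expressed, where 7.70% of all genes were, and 7 had an unadjusted p under 0.05; the lowest adjusted p was 0.0730, for SYK. These 7, SYK, PCSK5, COL8A1, LCP1, ABCA3, STOM and MN1, all moved with PT2385 in the direction they had in KO. DESeq2 also called 0 of the 77. The rule had limited this contrast, so nothing about the drug is read from the 0. All 88 members were called in KO against WT, where 30.1% of all genes were, and the rule had used that contrast too. Same-numbered WT and PT2385 libraries deviated together, though weakly for replicate number 2. A model that also held the replicate number called 6 of the 77 (15.3% of all genes were): PCSK5 (log2 fold change -0.26 ± 0.05, adjusted p by edgeR 0.00413), SYK (-0.31 ± 0.07, adjusted p by edgeR 0.00562), STOM (0.32 ± 0.08), COL8A1 (-0.18 ± 0.05), MN1 (0.35 ± 0.10) and ABCA3 (-0.28 ± 0.09). All 6 moved in the direction they had in KO, though both comparisons share the WT libraries.

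Intervals are given from the fit without the replicate number. The 95% interval of the PT2385 change lay wholly inside the 1.3-fold limits, ± 0.38 on the log2 scale, in 12 of the 77 members only. For the other 65 the interval reached beyond it in at least 1 direction. For NHERF2 it ran from -0.23 to 1.22 and for SEMA3E from -1.14 to 0.47. LAYN (-0.22 to 0.16), COL6A3 (-0.22 to 0.08) and EPAS1 (-0.27 to 0.06) were among the members with narrow intervals that included 0. The WT and PT2385 libraries did not overlap in 16 of the 88 members and in 29.7% of all 11287 genes, and the limit on PT2385/WT bounds the first of these counts. The 11 members that did not pass the filter, STUM and MARK1 among them, were too low in both groups to be tested.

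**Figure D4:**
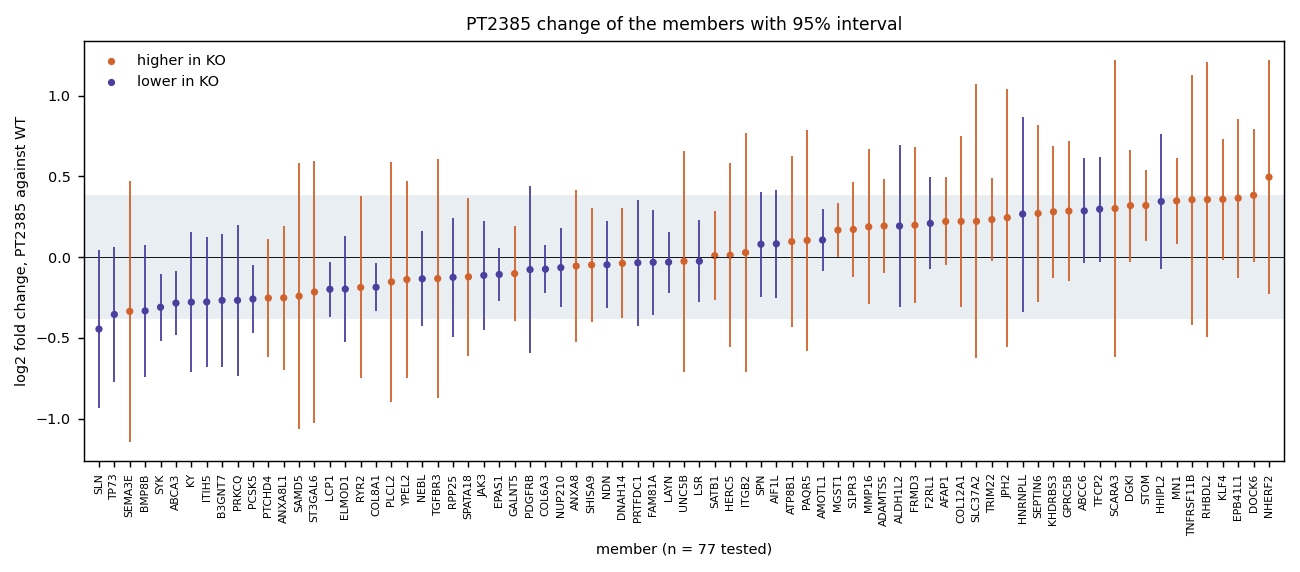
The log2 fold change with PT2385 (point) and its 95% interval (line) for the 77 members that could be tested, ordered by size. Orange genes were higher and purple genes lower in KO, and the shaded band is 1.3-fold in either direction. Most points lie in the band and most lines reach out of it.

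The promoters of members on which the description turns are given here, from 250 bases before to 50 after the transcription start. NUP210 and CACNB4 are a large fall and a large rise, and COL6A3 and COL12A1 are the collagen chains that moved furthest in opposite directions. Capitals mark the core of the HIF binding element, ACGTG or GCGTG, on either strand (read on the other strand as CACGT or CACGC). The sequences are from RefSeq (GRCh38.p14) on the strand of the gene. The windows are chr3:13420273-13420572 for NUP210, chr2:237414115-237414414 for COL6A3, chr2:152099118-152099417 for CACNB4 and chr6:75206004-75206303 for COL12A1, all on the minus strand.
NUP210: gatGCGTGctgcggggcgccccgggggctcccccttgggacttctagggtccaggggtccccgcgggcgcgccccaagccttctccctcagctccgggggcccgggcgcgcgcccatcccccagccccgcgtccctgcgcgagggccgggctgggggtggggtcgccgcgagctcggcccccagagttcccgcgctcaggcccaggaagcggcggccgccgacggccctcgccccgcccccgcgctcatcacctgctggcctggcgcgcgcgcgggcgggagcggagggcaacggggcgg
COL6A3: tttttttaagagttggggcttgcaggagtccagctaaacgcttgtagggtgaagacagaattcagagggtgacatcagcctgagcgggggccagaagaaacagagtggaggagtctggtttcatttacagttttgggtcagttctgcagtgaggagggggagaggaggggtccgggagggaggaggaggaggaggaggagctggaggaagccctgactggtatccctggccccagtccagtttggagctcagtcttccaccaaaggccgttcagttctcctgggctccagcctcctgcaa
CACNB4: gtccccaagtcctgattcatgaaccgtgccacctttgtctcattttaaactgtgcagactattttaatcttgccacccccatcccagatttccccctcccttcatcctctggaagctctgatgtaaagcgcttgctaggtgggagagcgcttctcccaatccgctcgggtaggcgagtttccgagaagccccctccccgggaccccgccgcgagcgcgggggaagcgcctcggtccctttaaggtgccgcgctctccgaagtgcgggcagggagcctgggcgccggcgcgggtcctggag
COL12A1: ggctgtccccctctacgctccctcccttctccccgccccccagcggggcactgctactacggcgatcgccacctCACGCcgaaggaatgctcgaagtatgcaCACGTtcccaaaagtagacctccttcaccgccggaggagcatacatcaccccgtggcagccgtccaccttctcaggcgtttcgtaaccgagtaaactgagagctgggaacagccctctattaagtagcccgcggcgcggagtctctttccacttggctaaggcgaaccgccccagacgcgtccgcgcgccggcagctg
NUP210 held 1 match and COL12A1 2, and COL6A3 and CACNB4 held 0. Of 35116 promoters of the same length 48.4% held at least 1 match, and of the 13711 that belong to counted protein-coding genes 61.4% did. A match or its absence in a single window is therefore ordinary. The base composition differed, with 42 CpG dinucleotides in the NUP210 window and 4 in that of COL6A3. Entries were found for 59 of the 88 members (67.0%), and no share over the whole set is given because that is under 80%.

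The members lay on 22 chromosomes, and gene bodies were long. Their median span was 80.0 kb, against 35.5 kb for the 11287 protein-coding genes and 46.0 kb for the other 169 genes that met the KO criteria. Their exons summed to a median of 6874.5 bases, against 5627 and 5880. Within 100 kb of each other, 2 pairs of members were found, with no tested gene between them. SORCS2 (chr4:7192538-7742836, plus strand) and AFAP1 (chr4:7758714-7939926, minus strand) lie 15.9 kb apart and both rose. ELMOD1 (chr11:107591091-107666779, plus strand) and SLN (chr11:107707378-107719693, minus strand) lie 40.6 kb apart and both fell. Of the other tested genes within 300 kb of SLN, CUL5, SLC35F2, ALKBH8 and CWF19L2 had log2 fold changes in KO between -0.24 and 0.11.

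The genes around some members had shifted as well in KO. On chromosome 15, which carries NDN, FAM81A, PAQR5 and RPP25, 342 of 371 other protein-coding genes tested in both comparisons had a log2 fold change below 0 in KO, with a median of -0.56 and quartiles of -0.75 and -0.37. On chromosome 16, which carries SHISA9, NHERF2, GPRC5B, ABCC6, SPN and ABCA3, 453 of 522 lay below 0, with a median of -0.34. The medians of the other 21 chromosomes compared lay between -0.03 and 0.11. With PT2385 the medians were -0.01 on chromosome 15 and 0.03 on chromosome 16. A stretch of 6.08 Mb on chromosome 1 from MARK1 to STUM (chr1:220528136-226609230), which also holds HHIPL2 and DNAH14, showed the opposite: 28 of its 29 other tested genes lay above 0 in KO, with a median of 0.86, and the median with PT2385 was 0.04. This stretch was chosen after its values were seen, and some genes past either end were higher in KO too. MARK1, STUM and DNAH14 rose with their surroundings and by more than them, whereas HHIPL2 fell by 1.86 on the log2 scale within genes that rose. On chromosome 15 PAQR5 rose by 3.21 among genes that fell. Most members lay among genes without such a shift. Of 71 members with at least 5 tested neighbours within 1 Mb, 6 (8.45%) had a neighbour median beyond 0.5 in either direction, against 3.30% of all 10479 such genes in KO and 0.0382% with PT2385. These 6 were MARK1, HHIPL2, DNAH14 and STUM, which share 1 stretch, and PAQR5 and RPP25. The limit of 0.5 left out FAM81A, with a neighbour median of -0.45 in KO, and every member on chromosome 16, with medians between -0.42 and -0.24. NDN had only 4 tested neighbours within 1 Mb. The number of gene copies was not measured here, and its part in these values was not tested.

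**Figure D5:**
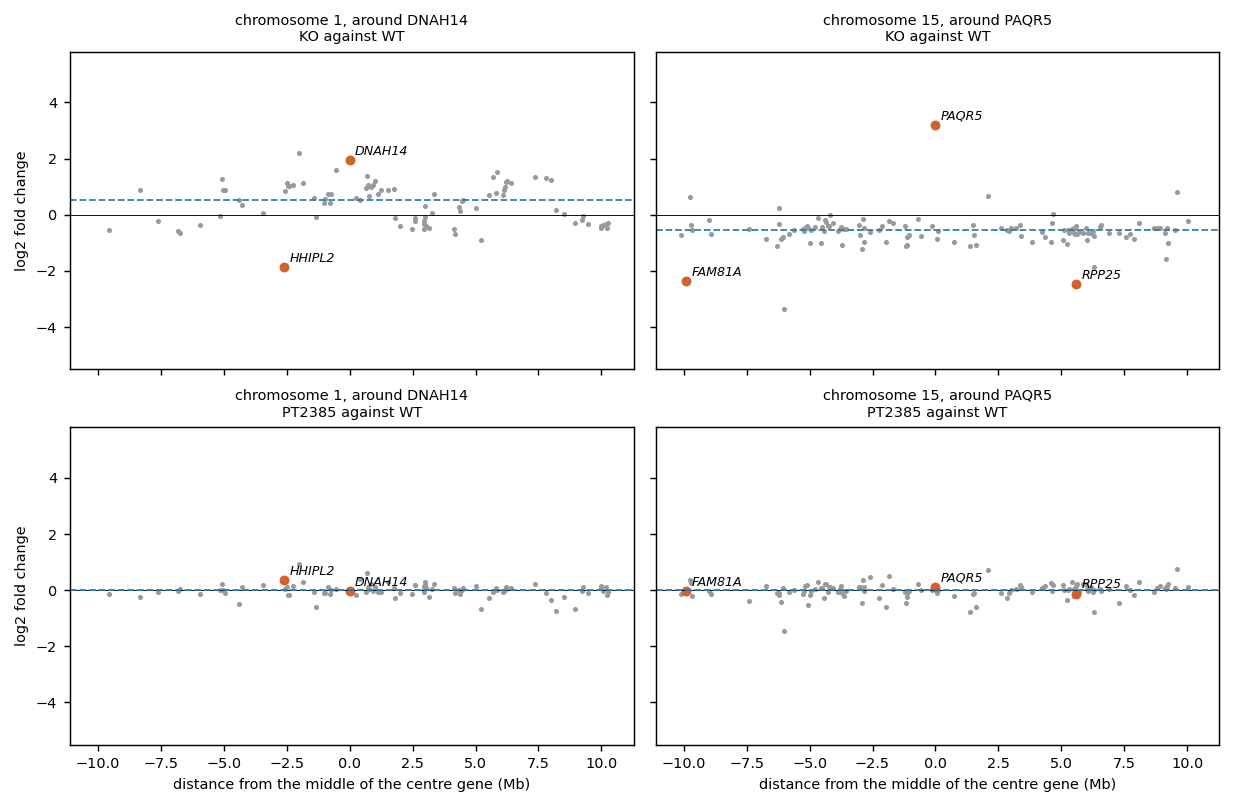
Log2 fold change of tested protein-coding genes within 10 Mb of DNAH14 (left) and PAQR5 (right) in KO (top) and with PT2385 (bottom), by distance from the middle of that gene in Mb. Orange points are members tested in both comparisons, and the dashed line is the median of the other genes, which is above 0 on the left and below 0 on the right in KO and near 0 with PT2385.

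For some members the reads may belong in part to another gene. The study's text does not say whether strand was used in counting. Of the members, 10 overlap a gene with at least as many reads: TP73, RHBDL2, BMP8B, SATB1, ST3GAL6, TRIM22, USP2, ALDH1L2, FAM81A and SPN. For ST3GAL6 the partner DCBLD2 had 161053 reads over the 9 libraries against 437, and its log2 fold change in KO was -0.27 while that of ST3GAL6 was 2.59. USP2 and its antisense RNA USP2-AS1 rose together, the latter by 1.88 on the log2 scale. ANXA8 and ANXA8L1 are near-identical copies and cannot be told apart with certainty, and ABCC6, BMP8B and AKR1C3 have close relatives or pseudogenes.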

How the data were processed

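RNA from 9 libraries of 786-0 cells was sequenced. Reads were trimmed with cutadapt after a FastQC check, aligned to GRCh38 with STAR and assigned to genes with featureCounts. Versions, annotation release and strand setting are not given in the sources used here. The authors deposited raw read counts per gene, without normalization, in 9 columns, each with the title of 1 sample (0 columns were left over). The labels gave the condition and the replicate number.

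Gene identifiers were matched to GENCODE release 44 (GRCh38), and 58207 of 58735 had an entry. The members were found with the rule given above. Members, lists and families were chosen with earlier results of these data known. Named genes were the 14 largest rises and 14 largest falls among members with a mean of at least 100 counts in their higher group, members of families holding 3 or more, neighbours within 100 kb, genes at the limits of the rule and at the floor of 3 counts. All other members were named afterwards for completeness.

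For each comparison, only its 2 groups were fitted, using R 4.3.3 and edgeR 4.0.16 (TMM factors, filterByExpr with a minimum of 10 counts, quasi-likelihood F test, Benjamini-Hochberg adjustment over all tested genes, adjusted p under 0.05), after a check on simulated data. Errors are standard errors of the model or the SD of 3 libraries. Library totals of 11881000 to 14730081 counts limit precision in members with few reads, and floors cover counting error only. Over 10140 genes, deviations from the group mean correlated between same-numbered WT and PT2385 libraries (r = 0.453, 0.137 and 0.431), weakly for number 2. The labels do not say that the numbers pair these libraries. The alternatives were DESeq2 1.42.0, other size factors, no filter, a replicate block, a model of all 9 libraries, other limits of the rule and leaving out each library. Promoters are RefSeq entries of GRCh38.p14.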

Additional observations from a re-analysis of the deposited data

How the results depend on the processing

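With other settings the rule gave 40 members at a mean of at least 100 counts, 237 at a KO limit of 2-fold and 133 at a PT2385 limit of 1.5-fold; 6 further settings gave between 68 and 105. Leaving out 1 library at a time gave 83 to 98 members, of which 68 to 84 were among the 88, so that up to 20 members, with WT replicate 3 left out, depended on a single library. Removing the members that overlap a gene with as many reads, an alternative chosen after seeing the data, left 78. All 88 members were called in KO under every alternative run. The number of genes called in KO went from 4566 to between 3344 and 5094 without 1 library and to 5501 with a replicate block, although same-numbered WT and KO libraries did not all deviate together (r = 0.319, 0.056 and 0.481). With PT2385, 1162 genes were called, 2305 with the replicate block and between 574 and 1451 without 1 library. The 0 members called with PT2385 became 3 without a filter on low counts (PCSK5, SYK and STOM), 6 with the replicate block, and between 0 and 3 without 1 library (STOM alone without PT2385 replicate 1, and DGKI, PCSK5 and SYK without PT2385 replicate 3). The cause of these differences was not tested. Of 847 alternative values for single members with PT2385, 13 passed the threshold that the value as reported had missed, and 0 turned called values round. Low counts limit the precision for most members, and lack of a call with PT2385 does not show that a level was the same.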

Other observations

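The rule was restricted to protein-coding genes. Applied to other gene types, an alternative chosen after seeing the data, it gave 9 long non-coding RNAs, of which 6 were higher and 3 lower in KO. MIR100HG, the host transcript of a microRNA cluster, had 50, 57 and 52 counts in WT, 69, 78 and 60 with PT2385 and 259, 176 and 194 in KO. GAS6-AS1 had 84, 68 and 72 counts in WT, 80, 69 and 92 with PT2385 and 280, 351 and 222 in KO. LINC01515 fell, from 215, 237 and 232 counts in WT and 247, 175 and 163 with PT2385 to 42, 47 and 40 in KO. USP2-AS1, which overlaps the member USP2 on the other strand, had 27, 26 and 22 counts in WT, 22, 40 and 28 with PT2385 and 78, 122 and 121 in KO. LINC01444 had 16, 12 and 3 counts in WT, 20, 6 and 4 with PT2385 and 101, 85 and 57 in KO. ENSG00000284377, on chromosome X, had 66, 67 and 76 counts in WT, 67, 80 and 55 with PT2385 and 0, 1 and 4 in KO. In each of these the KO libraries lay beyond all 6 others, and no test is given because the rule chose them.

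The regional shifts around some members changed with the window. Around STUM the neighbour median in KO was 0.89 within 1 Mb, 0.49 within 3 Mb, 0.69 within 5 Mb and 0.50 within 10 Mb. Around MARK1 it was 0.69, 0.86, 0.60 and 0.12 in the same windows, so that the median over 10 Mb to both sides was small. The rise did not stop at MARK1 and STUM. Before MARK1, BPNT1, IARS2 and RAB3GAP2 had log2 fold changes of 1.27, 0.89 and 0.87 in KO. Past STUM, ITPKB and PSEN2 were at 0.89 and 0.92, and the tested genes from COQ8A to GUK1 lay between -0.50 and -0.08. Farther on, those from COG2 to PCNX2 were all higher, between 0.69 and 1.52 in KO and between -0.37 and 0.20 with PT2385. Around RPP25 on chromosome 15 the neighbour median was -0.63, -0.63, -0.62 and -0.56, a nearly level shift. The PT2385 medians of the same windows lay between -0.02 and 0.04 for STUM, MARK1 and RPP25.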
